A study of Mus musculus with 189 samples.

Results

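Mcpt8, Prss34, Cd200r3, Itga2 and Cebpa, 5 genes commonly used to recognise mouse basophils, were followed through single mast lineage cells. They were chosen by symbol, and all 5 were found among the 46078 gene rows of the table. Reads were present for 4 of them, and the same 4 reached 5 CPM (a gene's reads for every 1000000 endogenous reads of a cell or group) in at least 1 group. Cebpa had 0 reads in all 189 cells. The question was whether the basophil genes fall in the same cells or in different ones.

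The cells came from peritoneal cells of 4 mice, all C57BL/6 females, and were sorted singly. The shared gate took live cells without lineage markers that stained for c-Kit and for FcεRI, the IgE receptor. Within it, 94 cells with weak integrin β7 staining and strong side scatter were labelled mature mast cells. A further 95 cells, with strong integrin β7 staining and weak side scatter, were titled MCP and described as basophil-mast cell progenitors, here BMCPs. No age, treatment or genotype other than the strain is given in the labels, and no cell is tied to a mouse. Each group was therefore 1 pooled sample, and no test was made from cells. Intervals are exact 95% intervals that cover counting error only, and not the spread between cells or mice. The protocol had no molecular identifiers and PCR copies count as reads. Intervals of pooled CPM treat reads as independent, so they are too narrow for the counting error of molecules.

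Basophils and mast cells both bind IgE through the same receptor and both store histamine and proteases in granules, but basophils circulate and are short-lived while mast cells mature in tissue. Mcpt8 encodes a granule protease that in mice marks basophils and gives them a commonly used reporter gene. Prss34 encodes a tryptase-like serine protease known from basophils and some mast cells, Cd200r3 an activating receptor of the CD200 receptor family, and Itga2 the collagen-binding integrin chain detected as CD49b. Cebpa encodes a transcription factor that directs progenitors toward basophils and away from mast cells.

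All mature mast cells and 93 BMCPs had at least 100000 endogenous reads and were kept. The kept mature cells had 561600 to 2152221 endogenous reads, with a median of 1255267, and the kept BMCPs 344022 to 2091665, with a median of 1247890. The median number of endogenous reads per spike-in read was 939 in mature cells and 562 in BMCPs. The mast cell chymase Cma1 and carboxypeptidase Cpa3 reached 100 CPM in every kept cell. However, BMCP number 46 and BMCP number 80 had only 119.6 and 163.9 CPM of Cma1, and 49765 and 43636 CPM of the B cell gene Cd74. All 5 basophil genes were under 10 CPM in both of these wells, and both are counted among the BMCPs without Mcpt8 unless stated. Of 7 NK cell genes, which matter because NK cells also carry CD49b, 6 had 0 reads in mature cells and 5 in BMCPs, and their summed level was at most 345.9 CPM in a cell. Of 5 platelet or megakaryocyte genes, Pf4 and Ppbp had 0 reads in both groups. Itga2b, an integrin chain gene that mast cells also express, was present in 51 mature cells and 51 BMCPs. The summed level of these 5 genes had medians of 144.7 CPM in mature cells and 193.0 CPM in BMCPs and ran from 0 to 1305 and from 0 to 3557 CPM, and its part in the Itga2 results was not tested. Of 6 eosinophil genes, 4 had 0 reads in mature cells and 2 in BMCPs, and their summed level reached 805.1 CPM in 1 BMCP described with Itga2. Of 6 T cell genes, 5 had 0 reads in mature cells and 3 in BMCPs. Their summed level had a median of 0 in both groups but reached 2041 CPM in a mature cell and 1570 CPM in a BMCP. The summed level of 6 B cell genes in mature cells had a median of 103.9 CPM and reached 1355 CPM. One of these genes, Ighm, was at 100 CPM or more in 43 mature cells.

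The stretches just before the starts of Mcpt8, Prss34 and Cd200r3 are shown because these genes carry the pattern of cells described below. They come from RefSeq on GRCm38.p6, in the direction of each gene, and end at the base before the start of the gene in the GENCODE annotation. The Mcpt8 stretch is chr14:56085274-56085447 on the minus strand and the Prss34 stretch chr17:25298144-25298393 on the plus strand. The Cd200r3 stretch is chr16:44943428-44943677 on the plus strand. Capitals mark matches on either strand to 3 motifs chosen with the sequences in view, namely AGATAA for GATA factors, TGTGGT for RUNX factors and TTGCNNAA for C/EBP factors.
Mcpt8: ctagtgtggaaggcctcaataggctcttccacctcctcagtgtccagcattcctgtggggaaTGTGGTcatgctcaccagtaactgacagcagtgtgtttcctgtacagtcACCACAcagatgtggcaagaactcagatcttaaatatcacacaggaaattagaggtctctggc
Prss34: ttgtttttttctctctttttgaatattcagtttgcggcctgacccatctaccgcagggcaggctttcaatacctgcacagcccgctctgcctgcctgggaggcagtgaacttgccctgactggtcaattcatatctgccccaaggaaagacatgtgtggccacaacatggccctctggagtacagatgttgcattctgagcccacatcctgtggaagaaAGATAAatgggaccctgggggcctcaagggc
Cd200r3: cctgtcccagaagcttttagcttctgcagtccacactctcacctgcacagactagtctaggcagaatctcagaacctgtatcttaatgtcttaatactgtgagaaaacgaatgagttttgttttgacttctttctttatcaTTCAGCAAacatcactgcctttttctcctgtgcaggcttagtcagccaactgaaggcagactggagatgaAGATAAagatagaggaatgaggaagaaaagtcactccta
The Mcpt8 stretch held 2 RUNX matches and neither of the other motifs. The Prss34 stretch held 1 GATA match 31 bases before the gene. The Cd200r3 stretch held 1 GATA match 39 bases before the gene and 1 C/EBP match 109 bases before it. Windows of the same kind at Itga2 and Cebpa held none of the 3 motifs. Of 32817 mouse promoters of 300 bases, 11.2% held the GATA letters, 16.8% the RUNX letters and 10.8% the C/EBP letters. These matches are shared letters and not binding sites shown by these data.

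In pooled level, the 2 basophil genes Mcpt8 and Itga2 were higher in BMCPs, while the mature cells had more Prss34 and Cd200r3. Of 10556 genes that reached 5 CPM in a group, 19.2% were at least 2-fold higher in BMCPs, and Mcpt8 and Itga2 were among them. The opposite difference held for 9.90% of genes and for none of the 5 basophil genes. Group ratios are log2 of mature CPM + 1 over BMCP CPM + 1. BMCPs had the higher level for 63.6% of these genes and mature cells for 36.4%. The median ratio was -0.25 over all these genes and -1.21 over the 4 basophil genes. With 2 of the 4 higher in each group, -1.21 is not close to the ratio of any of them. Because a minority of cells held most reads of Mcpt8, Prss34 and Itga2, the level in each cell is given beside the pooled value. A cell is said to have a gene at 100 CPM or more, and the nearest values on either side of it are given for each gene.

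**Figure D1:**
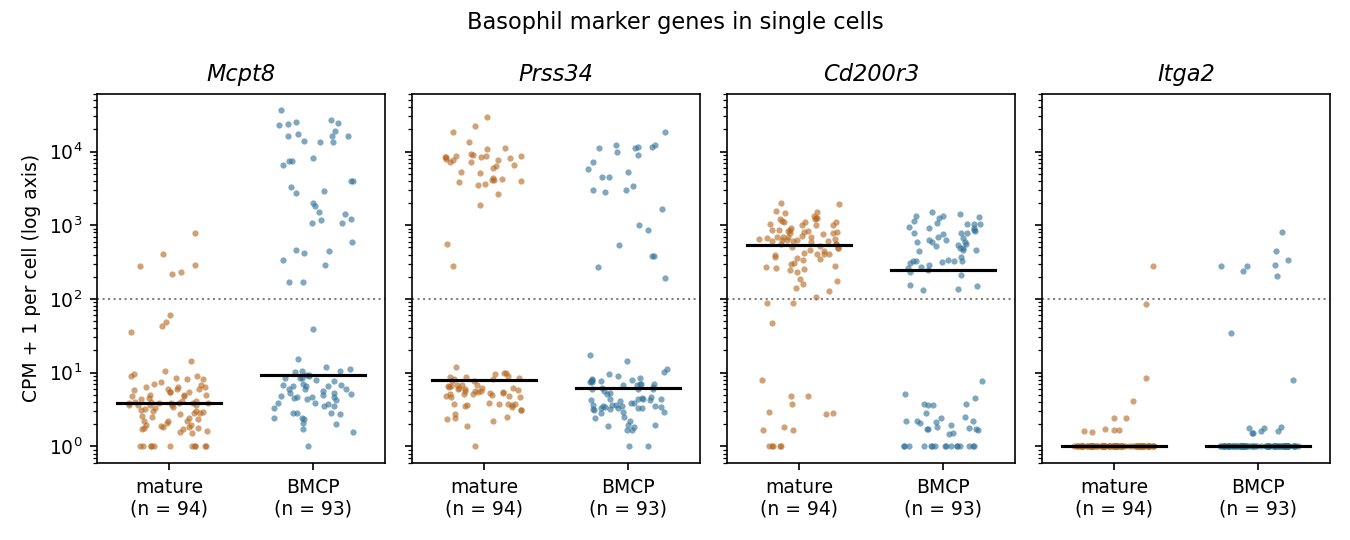
CPM + 1 of Mcpt8, Prss34, Cd200r3 and Itga2 in each kept cell on a log axis, for 94 mature mast cells and 93 BMCPs. Bars are medians and the dotted line is 100 CPM. Prss34 is split into a high and a low band in both groups, Mcpt8 exceeds 1000 CPM in 31 BMCPs and no mature cell, and Itga2 is at 0 in most cells.

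Mcpt8 (ENSMUSG00000022157) lies at chr14:56082166-56085273 on the minus strand of GRCm38, within the mast cell chymase cluster that also holds Cma1, Mcpt4, Ctsg and Gzmb. Its reads came to 3294 CPM in pooled BMCPs (3284 to 3304) and 30.2 CPM in pooled mature cells (29.2 to 31.2), a 109-fold difference and a log2 ratio of -6.72. Across BMCPs it ran from 0 through a median of 8.38 to 36263 CPM, and across mature cells from 0 through 2.86 to 786.8 CPM. It was thus at a high level in some BMCPs and not in the typical one, and the ranges of the groups overlapped. Mcpt8 was present in 39 of 93 BMCPs, or 41.9% (31.8 to 52.6), with a median of 3923 CPM in those cells. It was present in 6 of 94 mature cells, or 6.38% (2.38 to 13.4). The 6 mature cells had 786.8, 409.5, 286.0, 281.3, 230.0 and 215.7 CPM, and the first of them held 36.3% of all mature Mcpt8 reads. Without that cell the log2 ratio was -7.33. The lowest BMCP at or over 100 CPM had 166.8 CPM and the highest under it 38.2 CPM, and in mature cells these values were 215.7 and 60.1 CPM.

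Prss34 (ENSMUSG00000056399) lies at chr17:25298394-25300165 on the plus strand, in the tryptase cluster with Prss28, Tpsab1, Tpsb2 and Tpsg1. Its pooled level was 2899 CPM in mature cells (2890 to 2909) and in BMCPs 1580 CPM (1573 to 1587), with 0.88 as the log2 ratio. It ran from 0 through a median of 6.93 to 29397 CPM in mature cells and from 0 through 5.19 to 18464 CPM in BMCPs. The typical cell of either group was therefore low, and the pooled level came from a minority of cells that were very high. Prss34 was present in 37 of 94 mature cells, or 39.4% (29.4 to 50.0), and in 26 of 93 BMCPs, or 27.96% (19.1 to 38.2), intervals that overlap. The cells with Prss34 had medians of 7197 CPM in mature cells and 4491 CPM in BMCPs. Only 1 mature cell and 3 BMCPs lay between 10 and 100 CPM. The lowest mature cell with the gene had 277.5 CPM and the highest without it 10.96 CPM, and in BMCPs these values were 191.4 and 16.2 CPM.

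Cd200r3 (ENSMUSG00000036172) lies at chr16:44943678-44981380 on the plus strand. It was the most widespread of the basophil genes, present in 76 of 94 mature cells, or 80.9% (71.4 to 88.2), and in 53 of 93 BMCPs, or 56.99% (46.3 to 67.2). The intervals do not overlap, and the share was higher in the mature cells. Pooled, it was at 557.3 CPM in mature cells (553.1 to 561.6) and in BMCPs at 344.9 CPM (341.6 to 348.2), with 0.69 as the log2 ratio. Single cells ran from 0 through a median of 534.0 to 2001 CPM in mature cells and from 0 through 246.4 to 1533 CPM in BMCPs. Among the cells that had the gene the medians were near each other, at 628.8 CPM in mature cells and 584.1 CPM in BMCPs. In BMCPs a gap ran from 6.68 to 130.7 CPM, with no cell inside it. In mature cells the values on either side of 100 CPM were close, at 86.5 and 104.7 CPM.

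The other CD200 receptor genes on chromosome 16 with at least 5 CPM lay on the same side. Cd200r1, the inhibitory receptor, was at 183.4 CPM in pooled mature cells and 153.9 CPM in pooled BMCPs, a log2 ratio of 0.25. Cd200r4, an activating receptor, was at 102.2 and 53.2 CPM, a log2 ratio of 0.93. All 3 measurable receptors were higher in mature cells, as were 36.4% of all genes, and none by 2-fold.

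Itga2 (ENSMUSG00000015533) lies at chr13:114833081-114932100 on the minus strand. It was at 40.5 CPM in pooled BMCPs (39.4 to 41.7) and 3.83 CPM in pooled mature cells (3.49 to 4.20), a 10.6-fold difference and a log2 ratio of -3.10. It had 0 reads in 76 BMCPs and 83 mature cells, so the median was 0 in both groups. It was present in 8 of 93 BMCPs, or 8.60% (3.79 to 16.2), and in 1 of 94 mature cells, or 1.06% (0.0269 to 5.79), intervals that overlap. The mature cell had 275.4 CPM and held 75.6% of all mature Itga2 reads, and without it the log2 ratio was -4.42. BMCP number 53 had 802.7 CPM and held 34.7% of all BMCP Itga2 reads, and without it the ratio was -2.53. The other 7 BMCPs with the gene had 205.1 to 453.1 CPM, and the highest cell under the level had 33.5 CPM in BMCPs and 85.6 CPM in mature cells. Its integrin partner Itgb1 was at 200.6 CPM in pooled mature cells and 155.4 CPM in pooled BMCPs.

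Cebpa (ENSMUSG00000034957), at chr7:35119293-35121928 on the plus strand, had 0 reads in both groups. A count of 0 allows up to 0.0252 CPM in pooled mature cells and 0.0251 CPM in pooled BMCPs, for counting error only. Among its relatives, Cebpb was at 0.06 CPM in mature cells and 0.03 CPM in BMCPs, and Cebpe was at 0. Cebpd, at 3.04 and 6.29 CPM, Cebpg, at 21.3 and 35.1 CPM, and Cebpz, at 28.7 and 40.3 CPM, had more reads in BMCPs. Ddit3, also of the C/EBP family, was present in 53 mature cells and 32 BMCPs. All 4 genes of this family with at least 5 CPM in a group had higher pooled levels in BMCPs, as did 63.6% of all genes. None reached 2-fold in the log2 ratio, which adds 1 CPM.

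Read per length of exonic sequence, the order of the genes differed between the groups. In pooled BMCPs Mcpt8 was first at 3300 CPM per kb, followed by Prss34 at 1295, Cd200r3 at 57.6 and Itga2 at 5.68 CPM per kb. In pooled mature cells Prss34 was first at 2377 CPM per kb, followed by Cd200r3 at 93.1, Mcpt8 at 30.2 and Itga2 at 0.537 CPM per kb.

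Most cells with under 10 CPM of Mcpt8 or Prss34 still held a few reads. Mcpt8 had 1 to 9 reads in 70 mature cells and 42 BMCPs, and 0 reads in only 11 and 1. Over the 133 kept cells under 10 CPM the mean was 4.08 reads, which is 0.192% of the mean over all 187 kept cells. For Prss34 this share was 0.181%, for Cd200r3 0.263% and for Gzmb, which is not a basophil gene of this set, 0.152%. The tryptase gene Tpsb2 gave 0.185% in its 22 cells under 1000 CPM. For Itga2, with few reads in all, it was 0.762%. Low read numbers were thus a similar small part of the mean for the abundant genes, and they are not read here as expression. Where these reads came from was not tested.

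At 100 CPM, and counting cells with none of the genes, there were 11 different combinations in BMCPs and 9 in mature cells. No cell had all 4 genes. Of 93 BMCPs, 10 had none of the genes, 45 had 1, 33 had 2 and 5 had 3. Of 94 mature cells, 10 had none, 50 had 1, 32 had 2 and 2 had 3. In mature cells the commonest patterns were Cd200r3 alone in 43 cells and Prss34 with Cd200r3 in 29. In BMCPs they were Cd200r3 alone in 22 cells, Mcpt8 alone in 17, Mcpt8 with Cd200r3 in 13 and Prss34 with Cd200r3 in 13. Mcpt8, Prss34 and Cd200r3 occurred together in 2 BMCPs and 2 mature cells.

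**Figure D2:**
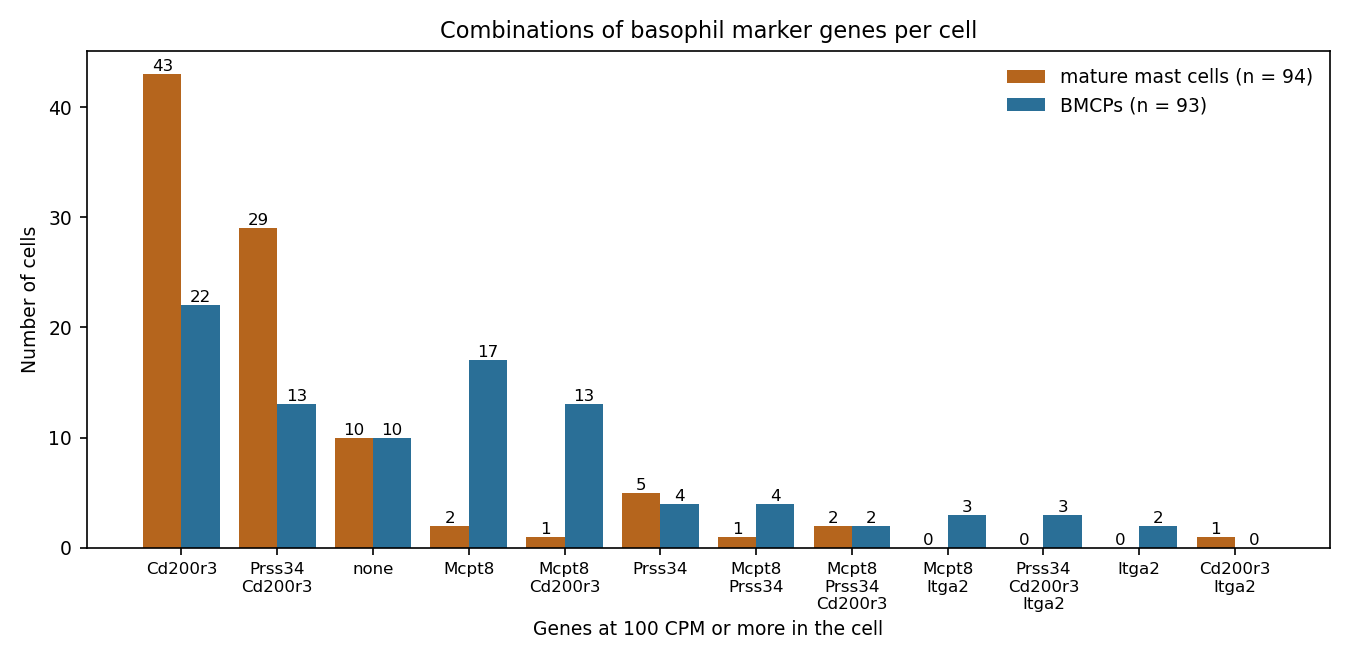
Number of cells with each combination of Mcpt8, Prss34, Cd200r3 and Itga2 at 100 CPM or more, for 94 mature mast cells and 93 BMCPs, with the count over each bar. Cd200r3 alone leads in both groups, with 43 mature cells and 22 BMCPs, and Mcpt8 alone is found in 17 BMCPs and 2 mature cells.

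In BMCPs, Mcpt8 was found less often in the cells that had Cd200r3 or Prss34. Cd200r3 was present in 15 of 39 BMCPs with Mcpt8, or 38.5% (23.4 to 55.4), and in 38 of 54 without it, or 70.4% (56.4 to 82.02). These intervals do not overlap, and the difference was -31.9 percentage points. Prss34 was present in 6 of 39 BMCPs with Mcpt8, or 15.4% (5.86 to 30.5), and in 20 of 54 without it, or 37.04% (24.3 to 51.3). Here the intervals overlap and the difference was -21.7 points. The pair was separated incompletely, since 6 BMCPs had both. Prss34 and Cd200r3 leaned the other way, with Cd200r3 in 18 of 26 BMCPs with Prss34 (69.2%) and 35 of 67 without it (52.2%).

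The table's columns form 2 runs of cell numbers, which the labels do not tie to plates or index kits. The difference for Mcpt8 and Cd200r3 was -36.5 points in the first run and -27.7 points in the second. For Mcpt8 and Prss34 it was -30.7 and -12.3 points. For Prss34 and Cd200r3 it was 4.52 points in the first run and 29.8 points in the second, so that relation rested mostly on the second run. Without the 2 wells with B cell genes the differences were -34.6 points for Mcpt8 and Cd200r3, -23.1 for Mcpt8 and Prss34 and 15.4 for Prss34 and Cd200r3.

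Among mature cells Prss34 and Cd200r3 occurred without a visible relation. Cd200r3 was present in 31 of 37 mature cells with Prss34 (83.8%) and in 45 of 57 without it (78.9%), a difference of 4.84 points. With at least 50 reads in place of 100 CPM it was -0.43 points. Of the 6 mature cells with Mcpt8, 3 had Prss34 and 3 had Cd200r3.

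Correlations of log2(CPM + 1) across cells were weak, and they describe cells that differ in depth and were sequenced in the same lane. Over 93 BMCPs Pearson's r was -0.28 for Mcpt8 with Cd200r3, -0.22 for Mcpt8 with Prss34 and 0.19 for Prss34 with Cd200r3. Over 94 mature cells the same pairs gave -0.19, 0.08 and 0.02.

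**Figure D3:**
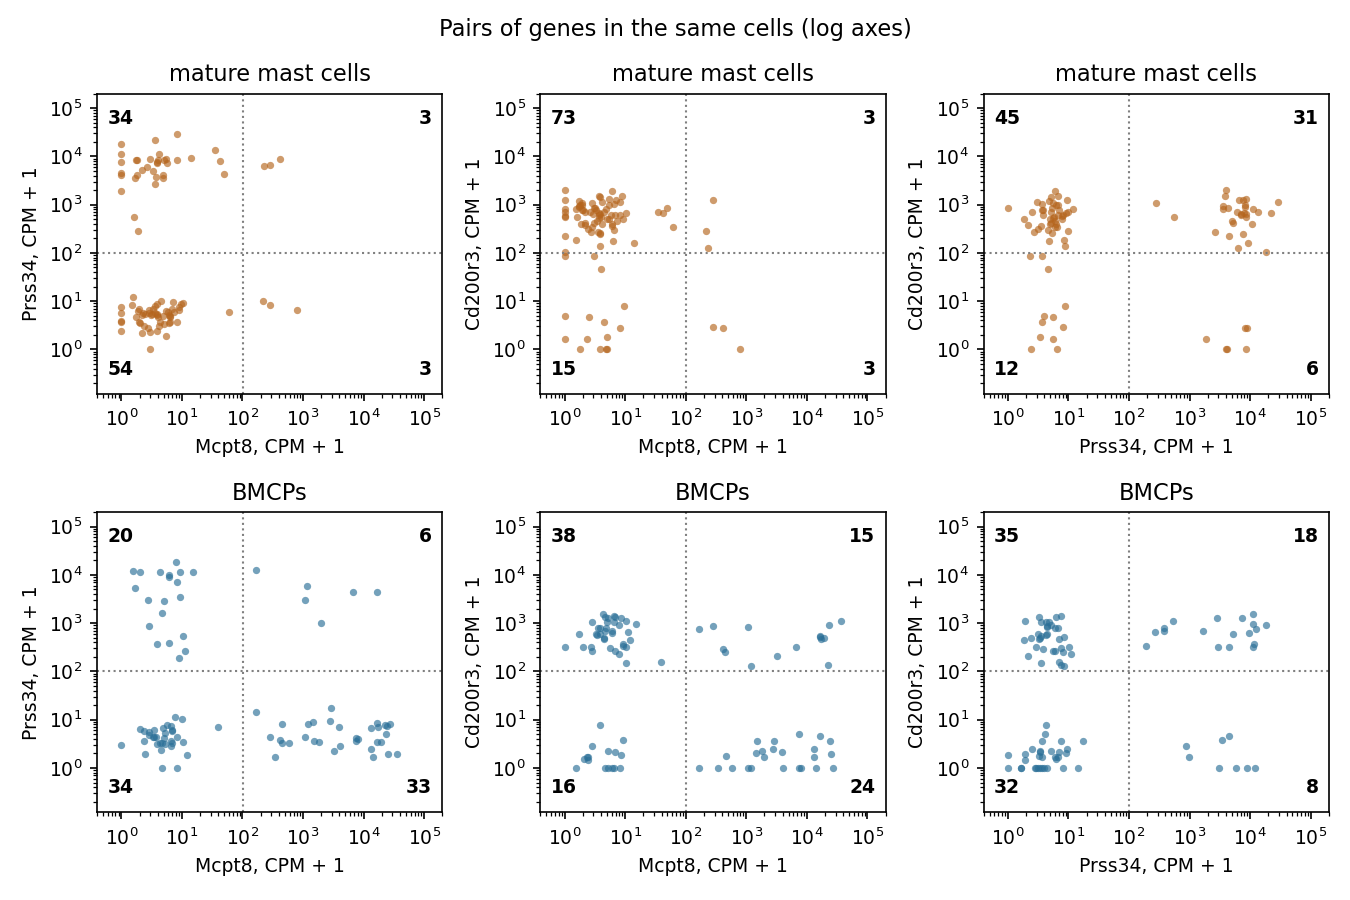
CPM + 1 of pairs of basophil genes in the same cells on log axes, with 94 mature mast cells above and 93 BMCPs below. Dotted lines mark 100 CPM and the numbers count the cells of each corner. In BMCPs, 33 cells have Mcpt8 without Prss34 and 6 have both, while 24 have Mcpt8 without Cd200r3 and 15 have both.

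BMCPs with Mcpt8 also differed from the other BMCPs in their mast cell protease genes. Tpsb2, a major mast cell tryptase, lay under 1000 CPM in 20 of 39 BMCPs with Mcpt8 and in 2 of 54 without it. Those 2 were the wells with B cell genes, so every other BMCP with low Tpsb2 had Mcpt8. The gap was wide. The 20 cells had 91.4 to 193.5 CPM of Tpsb2, and the lowest of the 71 remaining BMCPs had 5503 CPM. This level was chosen after the values were seen.

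Among cells with Mcpt8, its median was higher where Tpsb2 was low. The 20 cells with low Tpsb2 ran from 453.6 through a median of 10737 to 36263 CPM of Mcpt8, and the 19 cells with high Tpsb2 from 166.8 through 1197 to 23339 CPM. The ranges overlapped.

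Prss34, which lies in the same cluster as Tpsb2, was present in none of the 20 BMCPs with Mcpt8 and low Tpsb2, an interval of up to 16.8%. It was present in 6 of the 19 BMCPs with Mcpt8 and high Tpsb2, or 31.6% (12.6 to 56.6), and in 20 of the 52 BMCPs with high Tpsb2 and no Mcpt8, or 38.5% (25.3 to 52.98). Among BMCPs with high Tpsb2 the difference between cells with and without Mcpt8 was therefore -6.88 points, against -21.7 points over all BMCPs, and the intervals overlap. The wells with B cell genes are not among BMCPs with high Tpsb2, and without them the difference over all BMCPs was -23.1 points. Cd200r3 was present in 8 of 19 of the cells with high Tpsb2 and Mcpt8 (42.1%, 20.3 to 66.5). It was present in 38 of 52 with high Tpsb2 and no Mcpt8 (73.1%, 58.98 to 84.4), a difference of -31.0 points. This was nearly as large as over all BMCPs, where it was -31.9 points, or -34.6 without those wells, but the intervals overlap. In the 20 cells with low Tpsb2, Cd200r3 was present in 7.

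Gzmb, the granzyme B gene of the same chymase cluster, was present in 37 of 39 BMCPs with Mcpt8 (94.9%) and 23 of 54 without it (42.6%). Within the 60 BMCPs with Gzmb, Prss34 was present in 5 of 37 cells with Mcpt8 (13.5%, 4.54 to 28.8) and in 12 of 23 without it (52.2%, 30.6 to 73.2). Cd200r3 was present in 13 of those 37 (35.1%, 20.2 to 52.5) and in 16 of those 23 (69.6%, 47.1 to 86.8). Both differences were thus also present among BMCPs that had Gzmb, and the intervals did not overlap for Prss34 but did for Cd200r3. Only 2 BMCPs had Mcpt8 without Gzmb, too few for the same comparison. The 51 BMCPs without Mrgprb1 held 35 of the 39 cells with Mcpt8. In these 51 cells the difference was smaller than over all BMCPs for Cd200r3 and close to it for Prss34. There, Cd200r3 was present in 13 of 35 cells with Mcpt8 (37.1%, 21.5 to 55.1) and 8 of 16 without it (50.0%, 24.7 to 75.3), a difference of -12.9 points. Prss34 was present in 4 of 35 (11.4%, 3.20 to 26.7) and 5 of 16 (31.2%, 11.02 to 58.7), a difference of -19.8 points, and the intervals overlap for both genes. The 16 cells without Mcpt8 included both wells with B cell genes, which had neither Prss34 nor Cd200r3. These wells lower both shares of the cells without Mcpt8 and so make both differences smaller. They do so more among these 16 cells than among all 54 BMCPs without Mcpt8. The differences in the 51 cells were not computed without these wells, so they cannot be ranked against those over all BMCPs. Of the 42 BMCPs with Mrgprb1 only 4 had Mcpt8, and the differences there were 10.5 points for Prss34 and -28.9 points for Cd200r3. Prss34 itself did not follow Gzmb, with 17 of 60 BMCPs with Gzmb (28.3%) and 9 of 33 without it (27.3%).

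Of the 11 genes of the mast cell granule list, 8 were present in a smaller share of BMCPs with Mcpt8 than of those without it, 2 in an equal share and 1 in a larger share. The intervals lay apart for 5 of the 8, and no such count over all genes is given here. Tpsb2, among the 8 but not the 5, counted as present at 100 CPM in 36 of 39 and 54 of 54. However, 20 of those 39 had under 1000 CPM of it, as did 2 of the 54. Mcpt4, a chymase of connective tissue mast cells, was in 5 of 39 BMCPs with Mcpt8 (12.8%) and 33 of 54 without it (61.1%). Tpsab1, a tryptase, was in 2 (5.13%) and 25 (46.3%), and Hdc, the enzyme that makes histamine, in 18 (46.2%) and 45 (83.3%). The receptor gene Mrgprb1 was in 4 (10.3%) and 38 (70.4%), and Mrgprb2, the receptor for basic secretagogues, in 19 (48.7%) and 52 (96.3%). Slc18a2, which loads histamine into granules, was in 33 (84.6%) and 48 (88.9%), and Srgn, the granule proteoglycan core, in 39 (100%) and 53 (98.1%). Outside that list, the chymase cluster genes Ctsg, in 19 (48.7%) and 31 (57.4%), and Cma2, in 7 (17.9%) and 9 (16.7%), had similar shares. Cma1 and Cpa3 stayed high, with medians of 26509 and 45782 CPM in cells with Mcpt8 and 67605 and 57465 CPM in cells without it. The 11 genes of the mast cell granule list together took a median of 8.77% of endogenous reads in BMCPs with Mcpt8 (range 3.66 to 27.04) and 21.6% in those without (0.113 to 33.97), the lowest value being from a well with B cell genes. These shares are of a fixed total, so they lower or raise other CPM values, and the median number of endogenous reads was 1180423 in cells with Mcpt8 and 1334213 in cells without it. The part of either in the Mcpt8 pattern was not tested.

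Basophil cytokine and receptor genes were partly found with Mcpt8. Of the 19 genes of that list, 15 reached 5 CPM in a group, 11 were higher in BMCPs and 4 in mature cells, 6 of them at least 2-fold higher in BMCPs and none in mature cells, with a median log2 ratio of -0.38 against -0.25 over all genes. Over all genes 63.6% were higher in BMCPs, a share near that of the list, and 19.2% at least 2-fold. Il6, a cytokine gene, was in 15 of 39 BMCPs with Mcpt8 (38.5%) and 4 of 54 without it (7.41%). Ccr2, a chemokine receptor gene, was in 8 of 39 (20.5%, 9.30 to 36.5) and 0 of 54 (up to 6.60%). Csf2rb2, which encodes a receptor chain for interleukin-3, was in 18 (46.2%) and 12 (22.2%), and the common chain gene Csf2rb in 25 (64.1%) and 20 (37.04%). The intervals overlap for both genes, and also for the cytokine gene Il4, in 19 (48.7%) and 16 (29.6%). Crlf2 had near shares, in 7 (17.9%) and 8 (14.8%), and Ifngr1 was lower with Mcpt8, in 10 (25.6%) and 18 (33.3%). The surface genes Cd9 and Cd69 were in 31 (79.5%) and 19 (48.7%) of BMCPs with Mcpt8 and in 15 (27.8%) and 7 (12.96%) of those without. Il3ra, the specific chain for interleukin-3, was in 17 of 39 and 25 of 54, and Il1rl1, the receptor for interleukin-33, in 31 of 39 and 43 of 54, shares that lay close together. The IgE receptor gene Fcer1a was in 37 (94.9%) and 49 (90.7%), and Ms4a2, its β chain, went the other way, in 27 (69.2%) and 47 (87.04%).

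The list of 12 basophil transcription factor genes also holds factors that mast cells share. Of the 12, 11 reached 5 CPM, and 9 of these were higher in BMCPs, 4 of them at least 2-fold, with a median log2 ratio of -0.72. Over all genes 63.6% were higher in BMCPs and 19.2% at least 2-fold. Runx1, needed for normal basophil numbers, was at 105.1 CPM in pooled BMCPs and 16.9 CPM in pooled mature cells. It was in 16 of 39 BMCPs with Mcpt8 (41.03%, 25.6 to 57.9) and 8 of 54 without it (14.8%, 6.62 to 27.1), intervals that overlap slightly. Gata2, which serves both lineages, was in 38 of 39 and 49 of 54. Gata1 was in 12 of 39 (30.8%) and 17 of 54 (31.5%). Myb went the other way from Runx1, in 6 (15.4%) and 17 (31.5%), and Stat5a was in 12 (30.8%) and 9 (16.7%). The intervals overlap for both genes. Ikzf1 was in 15 (38.5%) and 17 (31.5%), and Spi1 in 18 (46.2%) and 22 (40.7%). Mitf was in 12 (30.8%) and 16 (29.6%), and Stat5b in 9 (23.1%) and 11 (20.4%).

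**Figure D4:**
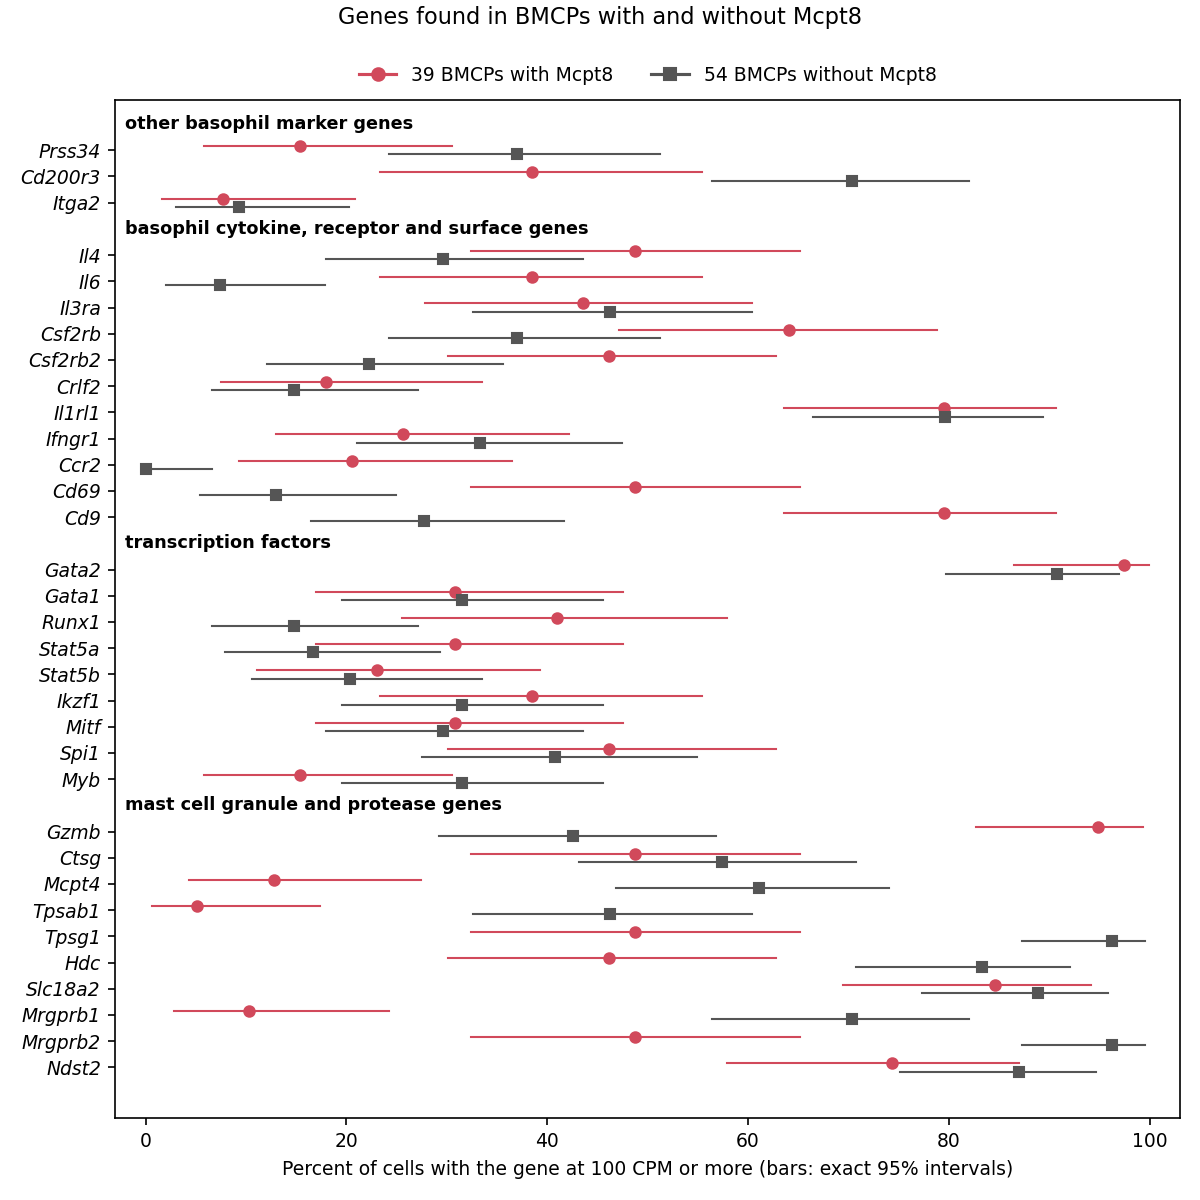
Percent of BMCPs with each gene at 100 CPM or more, for the 39 BMCPs with Mcpt8 (circles) and the 54 without it (squares). Lines are exact 95% intervals. Cd9, Gzmb, Il6 and Cd69 lie higher with Mcpt8, and Cd200r3, Mcpt4, Tpsab1, Mrgprb1 and Mrgprb2 lie lower.

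The genes whose levels were most like that of Mcpt8 across the 93 BMCPs were sought among 4566 genes with at least 100 CPM in at least 10 of these cells. Pearson's r of log2(CPM + 1) was highest for Scin, an actin-severing protein, at 0.73. It was 0.69 for Plac8, 0.67 for Nkg7, a protein of cytotoxic granules, 0.61 for Ccl9, a chemokine, and 0.61 for Angpt1, the ligand of Tie2. The middle 90% of all genes lay between -0.20 and 0.26. Scin was in 34 of 39 BMCPs with Mcpt8 and 10 of 54 without it, Plac8 in 22 and 2, and Ccl9 in 14 and 0. The lowest values were for Gpr141b at -0.73, Tpsb2 at -0.66 and Tph1, which makes serotonin, at -0.65. Cells with and without Mcpt8 also differ in granule share, and these values are a description of cells that share a lane.

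Prss34 had no neighbours of that strength. Its highest r in BMCPs was 0.38 for Tph1, in 24 of 26 BMCPs with Prss34 and 34 of 67 without it, and then 0.37 for Lcp2, a signalling adaptor, and 0.36 for Tpsb2. In the 94 mature cells, over 4887 genes, its highest value was 0.39 for Muc13, a membrane mucin, in 20 of 37 cells with Prss34 and 11 of 57 without it. The granule share was similar in mature cells with and without Prss34, with medians of 29.3% and 28.03%. Cd200r3 in BMCPs was most like Slc29a1, a nucleoside transporter, at 0.48, Mlph, a melanosome transport adaptor, at 0.44 and Grn, the granulin precursor, at 0.44. Il6 was among the most opposed, at -0.36, in 5 of 53 BMCPs with Cd200r3 and 14 of 40 without it. In mature cells its highest value was 0.36, for Plekho2 and for Rab44.

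The 6 BMCPs with both Mcpt8 and Prss34 were not of 1 kind. In 5 of them Gzmb was between 1595 and 19871 CPM and Mrgprb1 was at most 190.9 CPM. In BMCP number 65 Gzmb was at 4.84 CPM, Mcpt4 at 21455 CPM and Mrgprb1 at 2963 CPM, and Mcpt8 was only 167.0 CPM against 12419 CPM of Prss34. All 6 mature cells with Mcpt8 likewise had Gzmb under 10 CPM and Mcpt4 at 8805 CPM or more.

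The 8 BMCPs with Itga2 fell in different combinations. BMCP numbers 28, 68 and 79 had Mcpt8 at 26899, 25543 and 2739 CPM, Gzmb at 7460, 5737 and 8840 CPM, and Prss34 and Cd200r3 under 10 CPM. BMCP numbers 56, 62 and 73 had the opposite pattern. Their Prss34 was at 269.2, 385.1 and 11385 CPM, their Cd200r3 at 638.2, 691.4 and 317.8 CPM, and their Mcpt8 and Gzmb under 20 CPM. BMCP number 87 had neither Mcpt8 nor Prss34, and Mcpt4 at 26813 CPM. BMCP number 53, the highest for Itga2, had 805.1 CPM of Ccr3, the eotaxin receptor gene of eosinophils and basophils, with Gzmb at 2765 CPM and Cma1 at 52651 CPM. Its Mcpt8, Prss34 and Cd200r3 were under 10 CPM. Of the 8 cells, 7 were in the second run of columns and 1 in the first. The pooled log2 ratio was -3.53 in the first run and -3.09 in the second, so it was large in both, although in the first run it came mainly from BMCP number 28.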

How the data were processed

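Single-cell RNA was measured in 94 mature mast cells and 95 BMCPs on 2 plates of 96 wells, with ERCC spike-in RNA, 23 PCR cycles and 50 bp single-end reads, per the labels' protocols. The deposited table holds the authors' raw read counts per gene and cell. The submitters' processing notes name GSNAP, HTSeq 0.5.3p3 and the build mm10. The annotation release and the use of strand are not given in the sources used here. Summary rows held 31.6% of table reads (14.1% not aligned, 14.4% without a feature, 3.11% ambiguous) and were left out, as were the 92 ERCC rows.

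Symbols and coordinates came from GENCODE M21 on GRCm38 (98.0% of gene rows). No stretch of 50 bases of the Mcpt8, Prss34 or Itga2 transcripts was shared with another gene, and 2.79% of those of Cd200r3 were, mainly with many unrelated genes. An antisense gene overlaps 1.93% of Cebpa exonic bases. Cells under 100000 endogenous reads were left out, 2 in all. Doublets were not called. CPM used endogenous totals. Group levels were summed counts with Poisson intervals, and shares of cells had Clopper-Pearson intervals, all exact at 95% and covering counting error only. Log2 ratios added 1 CPM. The genes, lists and levels were chosen with earlier results of these data known. Named genes were the 5 basophil genes, genes of the related lists, and for each basophil gene in at least 10 cells of a group the 5 with the highest Pearson r, from which the text gives the leading ones. The genes named as most opposed were added later. The ratio and likeness steps were checked on simulated data. Python 3.11.15, numpy 2.4.6, pandas 2.3.3 and scipy 1.17.1 were used. Alternatives were other totals, added CPM, levels, read minimums, thinning, single cells left out and column runs. The runs and the wells with B cell genes were added after the data were seen.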

Additional observations from a re-analysis of the deposited data

Results flagged for a closer look

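The 2 BMCPs left out for low depth held reads of basophil genes above the 3 reads that a count of 0 allows. BMCP number 93, with 36972 endogenous reads, had 9 reads of Mcpt8, 9 of Prss34 and 10 of Cd200r3. BMCP number 6, with 3978 endogenous reads, had 5 reads of Prss34 and 1 each of Mcpt8 and Cd200r3. Neither had a read of Itga2 or Cebpa. Cells kept under 10 CPM held on average 4.08 reads of Mcpt8 and 5.15 of Prss34, at far higher depth.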

How the results depend on the processing

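No paired analysis was possible because the numbers shared by cells of the groups only name cells, and no result comes from a test. With each group as 1 pooled sample, differences between mice cannot be told apart from those between groups. A count of 0, as for Cebpa, is limited by depth as given above. None of 48 alternative log2 ratios changed sign, but only 16 stayed within the counting interval of the main ratio and 32 lay outside it.

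Scaling to ERCC reads moved the median of all genes by 0.88 and leaving the granule genes out of totals moved it by 0.20. Relative to that median, Mcpt8 was at -6.47, -6.46 and -6.48 with endogenous totals, ERCC scaling and granule genes out, Prss34 at 1.13, 1.16 and 1.13, Cd200r3 at 0.94, 0.97 and 0.95, and Itga2 at -2.85, -2.93 and -2.93. The unadjusted ratios with ERCC scaling were -5.82 for Mcpt8, 1.79 for Prss34, 1.60 for Cd200r3 and -2.30 for Itga2, and with granule genes out -6.53 for Mcpt8, 1.08 for Prss34 and 0.90 for Cd200r3. The mean of cells gave -7.00, 0.90, 0.62 and -2.69 for the 4 genes in that order. Adding 10 CPM gave -6.36 for Mcpt8 and -1.87 for Itga2, and adding 0.1 CPM -3.37 for Itga2. A minimum of 500000 reads gave 0.92 for Prss34. Without the mature cell with most reads the ratios were -7.33 for Mcpt8, 0.74 for Prss34, 0.64 for Cd200r3 and -4.42 for Itga2, and without the BMCP with most reads -6.56, 1.08, 0.75 and -2.53. The first run of columns gave -7.22, 0.57, 0.55 and -3.53, and the second -6.21 for Mcpt8, 1.16 for Prss34 and 0.93 for Cd200r3. Without the 2 wells with B cell genes Prss34 was at 0.84 and Cd200r3 at 0.66.

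Of 68 alternative shares of cells, 61 stayed within the interval. At 1000 CPM, Mcpt8 and Itga2 were in 0% of mature cells, Itga2 in 0% of BMCPs, and Cd200r3 in 17.02% of mature cells and 11.8% of BMCPs. In the first run of columns Itga2 was in 0% of mature cells and 2.13% of BMCPs.

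At 1000 CPM the differences in BMCPs were -11.3 points for Mcpt8 and Prss34, -12.9 for Mcpt8 and Cd200r3 and 4.98 for Prss34 and Cd200r3, and 0.19 for the last pair in mature cells. That pair in BMCPs gave 4.52 and 29.8 points in the first and second run. In mature cells with at least 50 reads it reversed to -0.43 points. Mcpt8 with Prss34 stayed negative in all 8 alternatives, from -30.7 to -11.3 points, and Mcpt8 with Cd200r3 from -36.5 to -12.9 points. The cause of these shifts was not tested.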
